A study of Mus musculus with 12 samples.

Results

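The transcripts of 56 mouse genes of DNA replication and mitosis were followed through 2 comparisons, choline against PBS in cultured macrophages and shChrebp against shCtrl in MC38 tumors. The genes were taken from a written list and had to be present in both expression tables, by Ensembl identifier among the 22274 rows of the tumor table and by symbol among the 19496 named rows of the macrophage table. All 56 were found. They hold 23 replication genes (10 of origin licensing, 10 of the replication fork and 3 of deoxynucleotide supply). A further 23 are mitosis genes (9 of mitotic control, 12 of the spindle and kinetochore, and 2 of the mitotic chromosome). The other 10 are 5 cyclins and kinases of the G1/S transition and 5 transcription factors.

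Each of the 4 groups had 3 RNA-seq libraries. The macrophages were bone-marrow-derived macrophages (BMDM), which the labels describe as held with LPS and IFN-γ, inducers of an inflammatory state, for 4 h before fresh medium with 200 µM choline was given for 24 h. The labels give the LPS and IFN-γ step in the sentence that ends in the choline treatment, and no separate course for the PBS group. That step was read here as applying to both groups, which the labels do not state outright. If the PBS cells went without it, its effect could not be told apart from that of choline. The labels describe the tumors as grown under the skin of C57BL/6 mice from injected MC38 cells, a colon adenocarcinoma line. They give the genotype as WT for shCtrl and as Chrebp knockdown for shChrebp. The knockdown is by a short hairpin against the glucose-responsive transcription factor Chrebp. The number of hairpins or clones, the age of the mice and the number of animals behind each library are not stated in the labels.

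Tumor libraries held 15844794 to 24181897 counts, and macrophage libraries 34961195 to 35393902 reads, recovered from the deposited FPKM. Mlxipl, the gene of Chrebp, was at 3, 1 and 1 counts in shCtrl and at 1, 1 and 2 counts in shChrebp, so its level gives no check of the hairpin labels. In BMDM, 7 of 10 macrophage markers reached 1 FPKM (Adgre1, Csf1r, Cd68, Itgam, Cd14, Lyz2 and Fcgr1), while Mrc1 and Mertk stayed under 0.1 FPKM and C1qa was not analysed here. The 9 markers in the table summed to 3731 to 3890 FPKM with PBS and 4812 to 5252 FPKM with choline, and most of that difference was in Lyz2, with means of 2587 and 3791 FPKM. Lyz2, Adgre1 and Fcgr1 rose with choline, Cd14 fell (−0.11 ± 0.04 on the log2 scale, limma adjusted p = 0.0385), and Csf1r (−0.08 ± 0.04), Cd68 and Itgam did not pass. In the libraries labelled tumor tissue the macrophage markers Adgre1, Csf1r and Itgam had group means under 0.1 FPKM, while Cd68, Cd14 and Lyz2 were above 1 FPKM. The 10 macrophage markers summed to 35.4 to 37.8 FPKM in shCtrl and 25.3 to 28.3 FPKM in shChrebp, where Cd68 fell (−1.10 ± 0.08, edgeR adjusted p = 2.97e-12) and Cd14 and Lyz2 did not pass. The 8 T and NK cell markers summed to at most 0.123 FPKM. The 5 endothelial markers summed to 0.411 to 0.939 FPKM in shCtrl and 0.256 to 0.427 FPKM in shChrebp. The 5 erythroid markers summed to 34.2 to 45.8 FPKM in shCtrl and 39.2 to 46.1 FPKM in shChrebp. How these low and high levels bear on the tumor tissue label was not tested. Genes of the fibroblast list summed to 192.6 to 197.6 FPKM in shCtrl and 160.3 to 161.5 FPKM in shChrebp. Of these 7 genes, Pdgfra, Pdgfrb, Dcn, Col1a1 and Col1a2 reached 1 FPKM in both groups. Lum was under 0.1 FPKM in both groups and Thy1 was under 0.1 FPKM in shChrebp. The library labelled shCtrl 1 stood apart in epithelial markers, which summed to 29.0 FPKM there, to as little as 3.53 FPKM in the other shCtrl libraries and to 4.34 to 4.45 FPKM in shChrebp.

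As background, chromosomes are licensed for replication in G1, when the origin recognition complex with Cdc6 and Cdt1 loads the ring of Mcm2 to Mcm7 onto DNA. In S phase Cdc45 and the GINS complex turn that ring into a moving helicase, and polymerases, the sliding clamp Pcna and its loader follow. Genes of this stage are known targets of E2F factors, which bind E2F sites, whereas mitotic genes are known to be switched on later by B-Myb (Mybl2) and Foxm1 acting through an element called CHR, often with CCAAT boxes nearby. Macrophages grown from bone marrow divide in culture under M-CSF, and MC38 is a line of dividing tumor cells.

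The letters in the members' promoters, which the list did not use, are given as a description with no test. RefSeq promoter windows of build GRCm38.p6, running from 250 bases before to 50 bases after the annotated start, were held for 44 of the 56 members, among them 19 replication and 19 mitosis genes. An E2F site (TTTCGCGC, TTTGGCGC or TTTCCCGC, on either strand) stood in 9 of 19 replication promoters (47.4%) and in 1 of 19 mitosis promoters (5.26%), that of Cdk1, beside 2.12% of all 27025 genes in the table. A CHR element (TTTGAA or TTCGAA, on either strand) stood in 4 of 19 replication promoters (21.1%) and in 15 of 19 mitosis promoters (78.9%), beside 21.7% of all genes. CCAAT boxes (CCAAT or ATTGG) were in 15 and 17 of the 19, beside 41.1% of all genes. The same letters in replication and mitosis genes outside the members gave 35.3% and 10.6% for E2F sites and 23.5% and 70.2% for CHR elements. For CCAAT boxes they gave 47.1% and 68.1%. A match is a run of letters in this window and not a measured binding site.

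The 200 bases before the start are shown for 3 replication genes with an E2F site, for 3 mitosis genes with a CHR element, and for Mad2l1, the only member that rose with choline. Each reads 5′ to 3′ toward the gene, which begins just after the last base, and capitals mark every match to the E2F, CHR and CCAAT letters. Mcm5 (chr8:75109309-75109508, plus strand) and Mcm6 (chr1:128359706-128359905, minus strand) each hold a pair of overlapping E2F sites on opposite strands, from 153 and 110 bases before the start, and Mcm6 has a further site 47 bases before it. In Orc1 (chr4:108579254-108579453, plus strand) the site begins 27 bases before the start. The CHR letters begin 29, 18 and 23 bases before the start in Ube2c (chr2:164769729-164769928, plus strand), Cdc20 (chr4:118437344-118437543, minus strand) and Top2a (chr11:99024190-99024389, minus strand), and Top2a has 3 further CHR matches upstream. The Mad2l1 stretch (chr6:66535021-66535220, plus strand) holds no match to any of the letters searched. This is not particular to Mad2l1. The windows of Rfc4, Tk1, Ccne1, Birc5, E2f1 and Mybl2, which all fell with choline, held no match either.
Mcm5: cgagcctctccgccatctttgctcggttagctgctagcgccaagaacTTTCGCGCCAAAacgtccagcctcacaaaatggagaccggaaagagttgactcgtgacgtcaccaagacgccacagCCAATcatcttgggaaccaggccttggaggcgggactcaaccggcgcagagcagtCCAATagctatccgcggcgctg
Mcm6: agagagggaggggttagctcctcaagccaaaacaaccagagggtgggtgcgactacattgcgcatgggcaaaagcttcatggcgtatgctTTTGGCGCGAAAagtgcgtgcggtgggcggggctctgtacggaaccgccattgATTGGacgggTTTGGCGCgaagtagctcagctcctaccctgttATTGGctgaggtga
Orc1: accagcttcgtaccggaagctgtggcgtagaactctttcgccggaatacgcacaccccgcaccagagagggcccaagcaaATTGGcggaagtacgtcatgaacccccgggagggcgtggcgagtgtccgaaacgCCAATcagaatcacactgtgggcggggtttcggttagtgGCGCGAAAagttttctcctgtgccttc
Ube2c: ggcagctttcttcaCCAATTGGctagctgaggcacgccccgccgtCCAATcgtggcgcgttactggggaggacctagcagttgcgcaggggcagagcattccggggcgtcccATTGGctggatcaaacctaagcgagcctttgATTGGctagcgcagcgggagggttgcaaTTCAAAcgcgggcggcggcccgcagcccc
Cdc20: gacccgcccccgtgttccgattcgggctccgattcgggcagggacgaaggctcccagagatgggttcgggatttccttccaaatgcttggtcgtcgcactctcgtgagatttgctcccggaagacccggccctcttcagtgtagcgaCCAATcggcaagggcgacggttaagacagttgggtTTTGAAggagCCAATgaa
Top2a: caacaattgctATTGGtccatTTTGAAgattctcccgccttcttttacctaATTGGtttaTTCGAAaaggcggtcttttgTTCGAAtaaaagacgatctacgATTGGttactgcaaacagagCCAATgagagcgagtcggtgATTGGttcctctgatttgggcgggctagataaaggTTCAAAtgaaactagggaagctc
Mad2l1: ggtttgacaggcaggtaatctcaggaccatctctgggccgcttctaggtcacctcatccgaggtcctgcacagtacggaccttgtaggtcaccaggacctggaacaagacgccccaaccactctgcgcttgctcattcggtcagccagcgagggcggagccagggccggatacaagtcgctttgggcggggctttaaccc

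**Figure D1:**
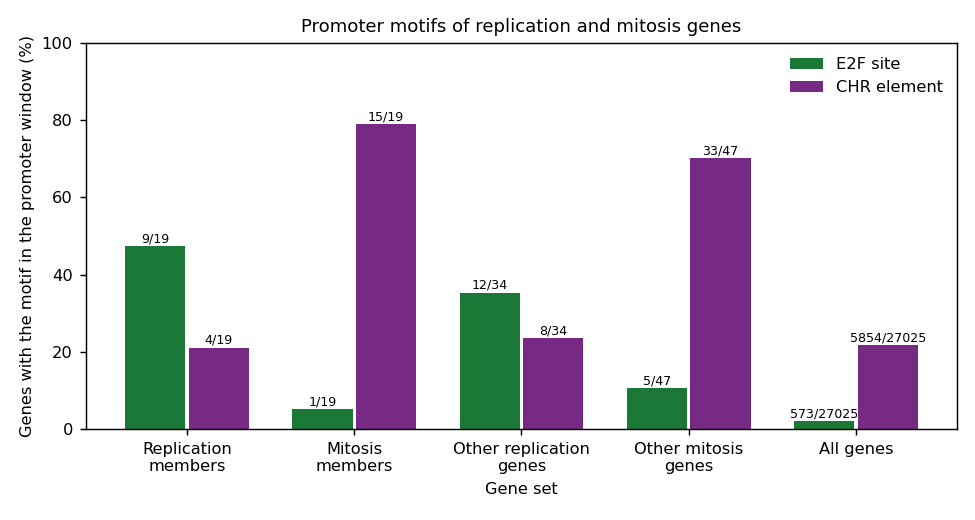
Share of genes (y axis, in percent) whose promoter window holds an E2F site (green) or a CHR element (purple), for 5 gene sets on the x axis, with the number of genes above each bar. E2F sites were found in 47.4% of replication and 5.26% of mitosis members, and CHR elements in 21.1% and 78.9%.

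The choline comparison asked how macrophage transcripts differ after choline. Nearly all of the replication and mitosis genes were lower with choline, those of replication and those of mitosis. Of 55 members tested, 51 fell and 1 rose at an adjusted p under 0.05 (limma-trend on log2(FPKM + 0.1), Benjamini-Hochberg over all genes), beside 29.2% of all 10028 tested genes that fell and 28.2% that rose. Cdc45, Prim1 and Cenpe did not pass, and Ccnd2, at 0.417 ± 0.0827 FPKM with PBS and 0.310 ± 0.0140 FPKM with choline (SD, n = 3), was under the limit of 1 FPKM for testing. The median log2 difference of the members was −0.43, or 74.2% of the PBS level, with a range from −1.23 to 0.40, while the median of all tested genes was 0.00. In 51 of the 55 tested members the PBS and choline libraries did not overlap. In this comparison 57.4% of all tested genes were called and 64.1% did not overlap. In bulk RNA, fewer cells in a phase and less RNA of these genes per cell cannot be told apart.

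Summed over the 56 members, the level was 2358 to 2442 FPKM in the PBS libraries and 1748 to 1801 FPKM in the choline libraries. The replication genes had a median of −0.41, with 21 of 23 lower and none higher, and the mitosis genes also had a median of −0.41, with 21 of 23 lower and 1 higher. The 10 G1/S and transcription factor genes had a median of −0.53, with all 9 tested members lower. In the same libraries the macrophage markers Lyz2, Adgre1 and Fcgr1 rose and Cd14 fell, as given above, and their part in the result was not tested.

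**Figure D2:**
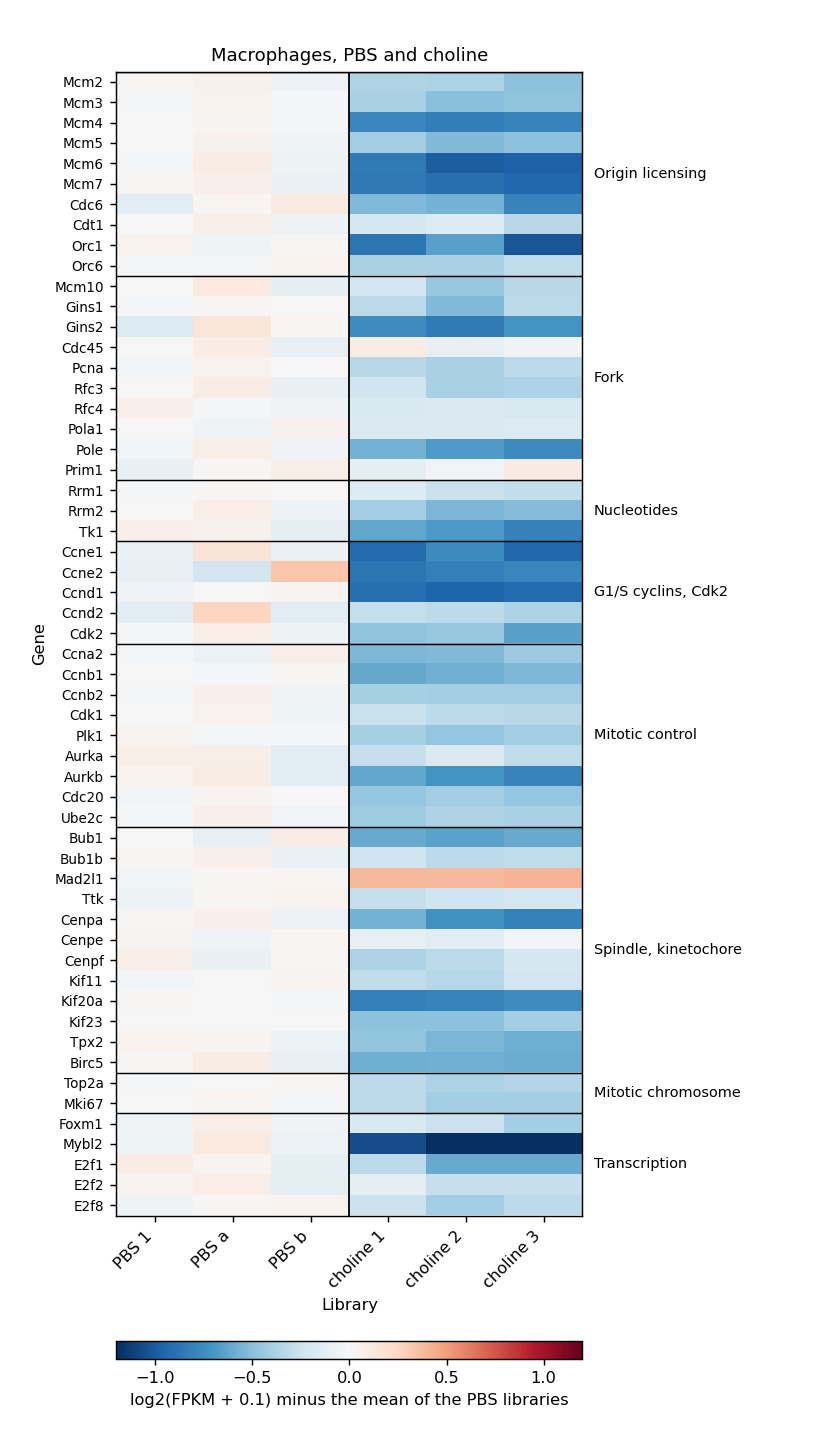
Level of each of the 56 members (rows, by role) in the 6 macrophage libraries (columns) as log2(FPKM + 0.1) minus the mean of the 3 PBS libraries, with blue for lower and red for higher. Blue runs through the choline columns of every role, and Mad2l1 is the red row, at 0.40 in the fit.

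Origin licensing genes fell in 10 of 10 members, with a median of −0.56. The subunits of the Mcm2 to Mcm7 helicase ring fell to unequal degrees. Mcm6 was at 44.4, 47.9 and 43.2 FPKM in the PBS libraries and 24.9, 22.7 and 23.0 FPKM with choline. Its level with choline was 52.2% of that with PBS (−0.94 ± 0.05, log2 difference ± SE; limma adjusted p = 8.75e-07), and the groups lay far apart. Mcm7 (55.4, 57.3 and 51.8 against 30.2, 29.2 and 28.5 FPKM, PBS against choline) and Mcm4 (43.5, 44.5 and 42.9 against 25.3, 24.6 and 25.1 FPKM) fell by similar amounts, −0.90 ± 0.05 and −0.80 ± 0.04. Mcm2 went from 41.2 ± 1.76 to 30.9 ± 1.48 FPKM (−0.41 ± 0.05; mean ± SD, n = 3), Mcm3 from 84.2 ± 1.92 to 61.3 ± 2.52 FPKM (−0.46 ± 0.04) and Mcm5 from 50.6 ± 1.66 to 36.2 ± 1.38 FPKM (−0.48 ± 0.04). Mcm4, Mcm6 and Mcm7, which are known to form a helicase on their own in vitro, had differences of −0.80 to −0.94, and Mcm2, Mcm3 and Mcm5 of −0.41 to −0.48. This split was noticed in the values and has no test of its own.

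Orc1, the largest subunit of the origin recognition complex, was at 7.60, 7.13 and 7.46 FPKM in the PBS libraries and 3.98, 4.67 and 3.57 FPKM with choline. It fell by 0.85 on the log2 scale (SE 0.09, limma adjusted p = 3.68e-05), to 55.0% of PBS, with choline 2 the highest of the treated libraries and still below every PBS library. Orc6, another subunit, fell less (−0.36 ± 0.04). Of the loading factors, Cdc6 went from 9.19 ± 0.788 to 5.89 ± 0.585 FPKM (−0.63 ± 0.09), and Cdt1, which is held in check by geminin, from 34.5 ± 1.57 to 29.3 ± 1.73 FPKM (−0.23 ± 0.05, limma adjusted p = 0.00468).

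**Figure D3:**
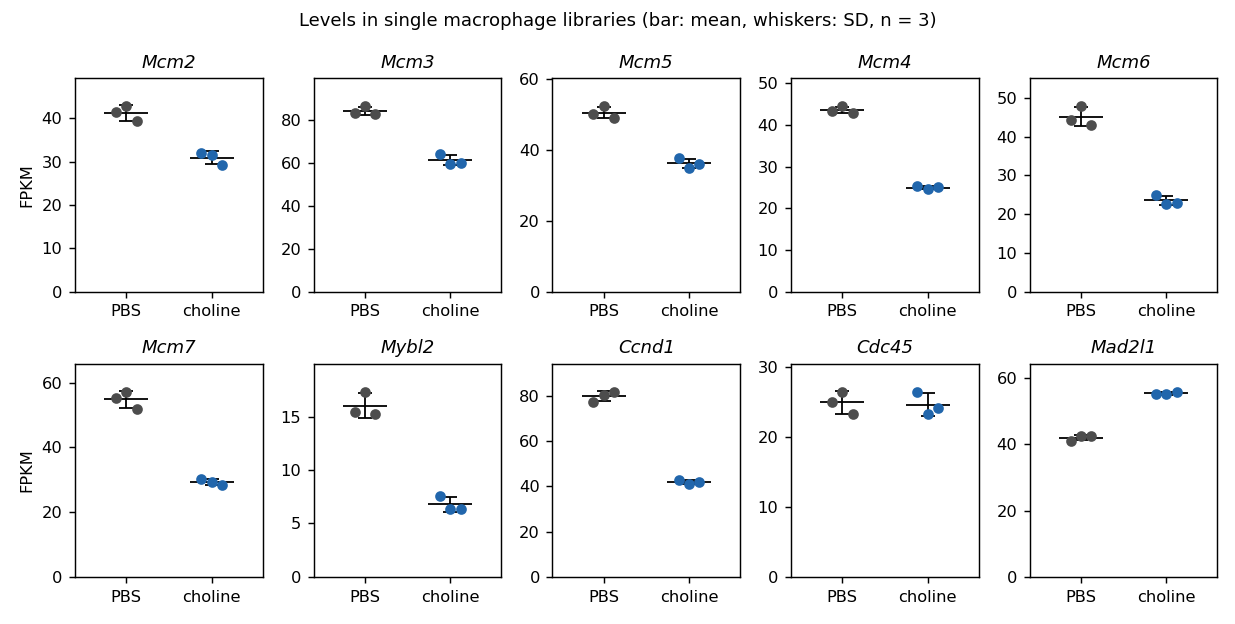
FPKM (y axes, starting at 0) of 10 members in each macrophage library, with points for libraries, bars for means and whiskers for SD (n = 3). Mcm4, Mcm6 and Mcm7 are at 52.2% to 57.3% of their PBS level, Cdc45 overlaps between groups, and Mad2l1 is higher in every choline library.

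Fork genes were less uniform, with 8 of 10 lower and a median of −0.34. Gins2, a subunit of the GINS complex, was at 15.3, 19.0 and 17.5 against 10.2, 9.53 and 10.4 FPKM and fell the most (−0.77 ± 0.08), while its partner Gins1 had −0.39 ± 0.06. Cdc45, the third component of the active helicase, was at 25.1, 26.5 and 23.3 FPKM in the PBS libraries and 26.5, 23.2 and 24.2 FPKM with choline. The groups overlapped fully, and the difference of −0.02 ± 0.06 did not pass (limma adjusted p = 0.825), with a 98.8% level against PBS. Prim1, the catalytic primase subunit that starts each new strand, likewise did not pass, at 28.0, 30.1 and 31.3 against 27.6, 29.1 and 31.9 FPKM (−0.01 ± 0.06, limma adjusted p = 0.857). Pola1, the polymerase that primase works with, fell slightly, to 88.9% (−0.17 ± 0.05, limma adjusted p = 0.0126), and Pole, the leading-strand polymerase, fell to 62.4% (−0.67 ± 0.06).

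Pcna had the highest level per length of all members in BMDM. It was at 236, 249 and 241 FPKM in the PBS libraries and 192, 184 and 194 FPKM with choline, a difference of −0.35 ± 0.04 with no overlap. Top2a and Ube2c came next, and Ccnd2 had the lowest level. The clamp loader subunits Rfc3 and Rfc4 fell by 0.34 and 0.18 on the log2 scale, and Mcm10, which helps to start the helicase, by 0.34.

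Deoxynucleotide genes fell in 3 of 3 members. Tk1, thymidine kinase, was at 38.1, 38.0 and 33.7 against 23.7, 22.7 and 20.8 FPKM (−0.70 ± 0.06). Ribonucleotide reductase has a large subunit, Rrm1, and a small one, Rrm2. Rrm2 went from 73.8 ± 3.94 to 52.4 ± 2.56 FPKM (−0.49 ± 0.05) and Rrm1 from 75.7 ± 0.979 to 63.9 ± 3.23 FPKM (−0.24 ± 0.04).

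Among roles with more than 3 tested members, the G1/S cyclins and Cdk2 had the lowest median, −0.85, with 4 of 4 tested members lower. Ccnd1, cyclin D1, which couples growth factor signals to the cycle, was at 77.4, 80.4 and 81.9 FPKM in the PBS libraries and 42.7, 41.0 and 41.8 FPKM with choline. With −0.93 ± 0.04 it had the smallest adjusted p of the members (limma adjusted p = 1.53e-07), and every choline library lay near 52.4% of the PBS mean. The E cyclins, which bind Cdk2 to start S phase, fell in both genes. Ccne1 was at 15.4, 18.2 and 15.5 against 8.53, 9.58 and 8.47 FPKM (−0.88 ± 0.08) and Ccne2 at 16.9, 15.5 and 22.8 against 9.83, 10.2 and 10.5 FPKM (−0.83 ± 0.12), the latter with a wide spread that came from PBS b. Cdk2 itself went from 23.3 ± 1.23 to 16.1 ± 1.16 FPKM (−0.53 ± 0.06).

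Mitotic control genes fell in 9 of 9 members, with a median of −0.43. Ccnb1, cyclin B1, the partner of Cdk1 at entry into mitosis, was at 77.7, 76.1 and 78.1 FPKM in the PBS libraries and 50.5, 51.7 and 53.2 FPKM with choline, a difference of −0.58 ± 0.04 (limma adjusted p = 1.61e-06). All 3 choline libraries were below all 3 PBS libraries. Ccnb2 fell less, by 0.41, and cyclin A2 (Ccna2) by 0.50. Cdk1, whose activity is set by these cyclins, went from 30.2 ± 0.931 to 24.4 ± 0.550 FPKM (−0.31 ± 0.04). Among the other mitotic kinases, Aurkb, of the chromosomal passenger complex, went from 29.7 ± 2.37 to 18.1 ± 1.13 FPKM (−0.71 ± 0.07), Plk1 from 28.1 ± 0.611 to 20.9 ± 0.490 FPKM (−0.43 ± 0.04) and Aurka, the centrosomal Aurora kinase, from 39.6 ± 3.21 to 33.2 ± 1.67 FPKM (−0.25 ± 0.06). Cdc20 and Ube2c, an activator and a ubiquitin-conjugating enzyme of the anaphase-promoting complex, fell by 0.45 and 0.40.

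Spindle and kinetochore genes gave 10 lower, 1 higher and 1 not called of 12, with a median of −0.38. Kif20a, a kinesin of cytokinesis, was at 36.4, 36.0 and 35.7 FPKM in the PBS libraries and 20.3, 20.7 and 21.3 FPKM with choline and fell the most (−0.79 ± 0.04, limma adjusted p = 4.34e-07). Bub1, a kinase of the spindle assembly checkpoint, was at 54.3, 50.4 and 57.3 against 35.3, 34.5 and 35.5 FPKM (−0.62 ± 0.05), and Cenpa, the histone H3 variant of centromeres, at 41.3, 42.6 and 38.9 against 27.5, 24.6 and 23.3 FPKM (−0.70 ± 0.06). Birc5 (survivin) and Tpx2, a spindle assembly factor, fell by 0.59 and 0.53, and Kif23, Kif11, Cenpf, Bub1b and Ttk by 0.24 to 0.46.

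Mad2l1 was the member that rose. It encodes Mad2, which acts beside Bub1, Bub1b and Ttk in the spindle assembly checkpoint and restrains Cdc20. It was at 41.0, 42.3 and 42.4 FPKM in the PBS libraries and 55.0, 55.1 and 55.8 FPKM with choline, from 3037, 3116 and 3109 recovered reads against 4070, 4055 and 4085. Every choline library was above every PBS library, and the mean was 131.9% of PBS (0.40 ± 0.04, limma adjusted p = 1.51e-05). Cenpe, a kinetochore motor, was at 21.5 ± 0.689 FPKM with PBS and 20.2 ± 0.777 FPKM with choline, with overlapping groups and a difference that did not pass (−0.09 ± 0.05, limma adjusted p = 0.135).

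Top2a, the topoisomerase that untangles chromosomes, and Mki67, the common proliferation marker, fell by near-equal amounts. Top2a went from 135 ± 1.03 to 106 ± 2.12 FPKM (−0.35 ± 0.03) and Mki67 from 71.3 ± 1.22 to 54.7 ± 2.24 FPKM (−0.38 ± 0.04). The groups of both genes did not overlap.

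All 5 transcription factors of the cycle fell. Mybl2, which encodes B-Myb, was at 15.5, 17.3 and 15.2 FPKM in the PBS libraries and 7.61, 6.38 and 6.38 FPKM with choline. This was the lowest fold change among the 55 tested members, at 42.4% of PBS (−1.23 ± 0.08, limma adjusted p = 1.68e-06), and choline 1 was the highest treated library. Foxm1, which takes over from B-Myb at mitotic promoters, fell much less, from 18.0 ± 0.871 to 14.8 ± 1.19 FPKM (−0.28 ± 0.06). E2f1, an activating E2F, went from 10.8 ± 0.808 to 7.62 ± 0.916 FPKM (−0.51 ± 0.09) and E2f8, a repressing one, from 9.51 ± 0.322 to 7.55 ± 0.417 FPKM (−0.33 ± 0.06). E2f2, another activator, was at 8.40, 8.67 and 7.56 against 7.60, 6.76 and 6.76 FPKM, with choline 1 just above PBS b, and its call (−0.22 ± 0.07, limma adjusted p = 0.0258) was lost in 5 of 10 alternatives, which gave 0.00827 to 0.0902. Those 5 were the fit without a filter on low values and the fits without PBS 1, PBS a, choline 2 or choline 3.

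Members with and without the promoter letters both fell. The 12 members with an E2F site had a median of −0.47 and the 32 without one −0.37. The 21 with a CHR element had a median of −0.35 and the 23 without one −0.48. For CCAAT boxes, the 35 with one had a median of −0.36 and the 9 without one −0.59. These medians are descriptions and have no test.

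Other genes of the same processes were read from lists that hold no member. Of 40 further replication genes, 32 were lower, with a median of −0.40. Pold1 and Pole2, subunits of the lagging- and leading-strand polymerases, had −1.18 ± 0.07 and −0.99 ± 0.07, and Uhrf1 and Dnmt1, which copy DNA methylation behind the fork, had −0.86 ± 0.05 and −0.80 ± 0.05. Of 56 tested further mitosis genes, 41 were lower and none higher, with a median of −0.29. Lmnb1 (−0.64 ± 0.04), Kif15 (−0.68 ± 0.05), Tacc3 (−0.82 ± 0.06) and Melk (−0.64 ± 0.06) had the smallest adjusted p among them.

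Inhibitors of the cycle were lower too, in 12 of 17 tested genes, with 1 higher. Cdkn1a, which encodes the kinase inhibitor p21, was at 126, 131 and 132 against 101, 94.0 and 88.2 FPKM (−0.46 ± 0.05, limma adjusted p = 4.44e-05), with no overlap. Cdkn1b fell by 0.24, Cdkn2c by 0.22 and the retinoblastoma relatives Rbl1 and Rbl2 by 0.23 and 0.34, while Rb1 did not pass (0.19 ± 0.09, limma adjusted p = 0.0814). Ccng2 fell most (−1.03 ± 0.06), and Btg1, an antiproliferative gene, rose (0.51 ± 0.03). Among 20 upstream genes of the G1/S transition 5 were lower and 3 higher, where 29.2% of all tested genes were lower and 28.2% higher. Ccnd3 fell (−0.79 ± 0.06) and Mycn fell (−0.64 ± 0.04), Myc rose from 92.2 ± 2.88 to 112 ± 2.70 FPKM (0.28 ± 0.04), and the cyclin D partners Cdk4 and Cdk6 did not pass, at −0.02 ± 0.04 and 0.01 ± 0.04.

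The tumor comparison asked how transcripts of MC38 tumors differ with the hairpin against Chrebp. Here the members moved in both directions and by small amounts. Of 56 members tested, 19 were higher and 6 lower in shChrebp at an adjusted p under 0.05 (edgeR's quasi-likelihood F test, Benjamini-Hochberg over all genes), beside 18.6% and 19.7% of all 11780 tested genes. The median log2 difference of the members was 0.03, that of all genes 0.00, and the members ran from −0.58 (E2f2) to 0.32 (Bub1). The 2 tumor groups did not overlap in 33 members, in a comparison that called 38.2% of all tested genes and in which 47.6% of them did not overlap. Without shCtrl 1, the library with the high epithelial markers, 18 were higher and 5 lower. The summed levels of the fibroblast and macrophage lists were lower in shChrebp, as given above. Only 5 of 7 fibroblast and 3 of 10 macrophage genes reached 1 FPKM, so the sums are not a measure of those cell types. The part of these sums in the values of the members was not tested.

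Mitosis genes made up 10 of the 19 that rose, with 2 lower of 23 and a median of 0.09. Replication genes had 7 higher and 3 lower of 23 and a median of 0.01, and the remaining 10 members had 2 higher and 1 lower. The difference between these sets was not tested. For these counts, and for the tumor counts by role and list below, 18.6% of all tested genes were higher and 19.7% lower.

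**Figure D4:**
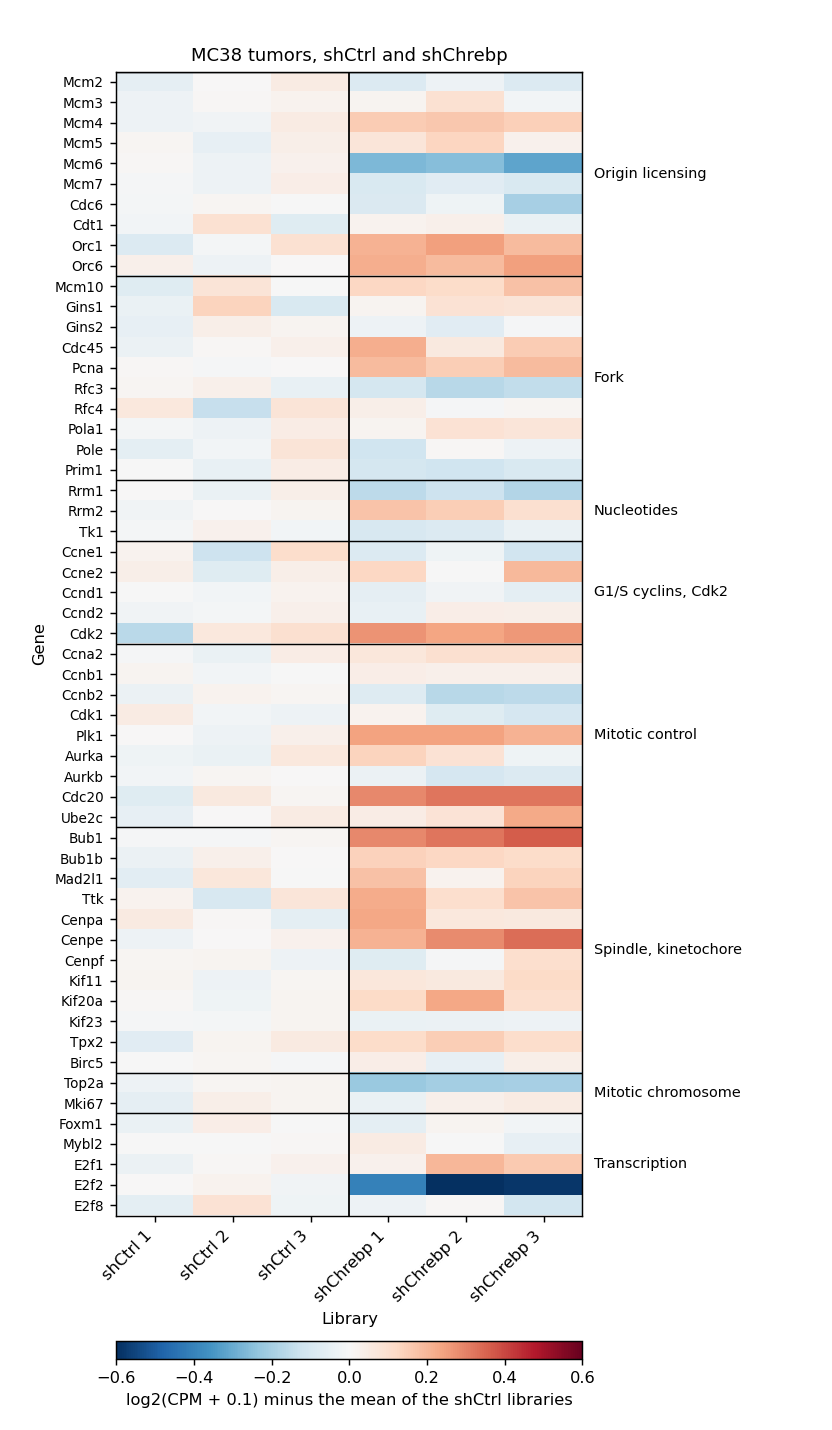
Level of each of the 56 members (rows, by role) in the 6 tumor libraries (columns) as log2(CPM + 0.1) minus the mean of the 3 shCtrl libraries, with blue for lower and red for higher, on a narrower colour scale than that of the macrophage map. Red rows such as Bub1, Cdc20 and Cenpe stand beside blue rows such as Mcm6, Top2a and E2f2.

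In the licensing genes, 3 rose, 2 fell and 5 did not pass. Mcm6 was at 669, 652 and 679 against 552, 559 and 536 CPM (shCtrl against shChrebp). It was lower in every shChrebp library (−0.28 ± 0.03, log2 difference ± SE; edgeR adjusted p = 7.96e-09), while Mcm4, of the same ring, was higher in every one, at 324, 326 and 343 against 367, 370.4 and 365 CPM (0.15 ± 0.03, edgeR adjusted p = 0.000323). Mcm7 fell by 0.08, a call that was lost in 9 of 11 alternatives (edgeR adjusted p = 0.0418, and 0.0472 to 0.406 over the alternatives). The origin recognition genes Orc6 and Orc1 rose by 0.22 and 0.21, Orc6 from 82.2 ± 1.70 to 95.7 ± 1.93 CPM (mean ± SD, n = 3), and the call of Orc1 was lost in 1 of 11 alternatives. Mcm2, Mcm3, Mcm5, Cdc6 and Cdt1 had differences of −0.10 to 0.08 that did not pass.

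At the fork, Pcna was at 504, 498 and 502 CPM in the shCtrl libraries and 571, 554 and 572 CPM in the shChrebp ones. It rose by a small but even amount (0.17 ± 0.03, edgeR adjusted p = 1.76e-05), with no overlap. Cdc45 (0.14 ± 0.05) and Mcm10 (0.13 ± 0.05) rose as well, although the call was lost for Cdc45 in 1 and for Mcm10 in 5 of 11 alternatives, and the other 7 fork genes, at −0.14 to 0.06, did not pass. The subunits of ribonucleotide reductase went in opposite directions. Rrm2 rose from 396 ± 4.85 to 436 ± 11.7 CPM (0.14 ± 0.03) and Rrm1 fell from 599 ± 15.2 to 539 ± 9.11 CPM (−0.15 ± 0.03), each without overlap, and Tk1 did not pass (−0.07 ± 0.04). Of the G1/S group only Cdk2 passed in this fit, at 55.2, 64.3 and 65.9 against 74.3, 72.5 and 73.7 CPM (0.25 ± 0.05, edgeR adjusted p = 0.000677), and shCtrl 1 was the lowest of its control libraries.

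Among mitotic control genes 4 rose and 1 fell. Cdc20 was at 147, 161 and 156 CPM in the shCtrl libraries and 188, 192 and 193 CPM in the shChrebp ones. All shChrebp libraries were above all shCtrl libraries (0.31 ± 0.04, edgeR adjusted p = 8.93e-08), as they were for Plk1, at 113, 110.4 and 115 against 133, 133 and 130.1 CPM (0.23 ± 0.04). Ccna2 (0.09) and Ube2c (0.12) rose by less than the other called genes of this role, and Ccnb2 fell by 0.13. These last 3 calls were lost in 3, 4 and 5 of 11 alternatives. Ccnb1, Cdk1, Aurka and Aurkb did not pass.

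Spindle and kinetochore genes had 6 higher and none lower of 12, with a median of 0.12. Bub1 was at 164, 164 and 166 CPM in the shCtrl libraries and 201, 206 and 212 CPM in the shChrebp ones, the highest fold change of the members (0.32 ± 0.03, edgeR adjusted p = 9.18e-09), and the groups lay far apart for their spread. Cenpe, at 216, 221 and 225 against 255, 269 and 278 CPM, was next in this role (0.27 ± 0.04). Ttk, Kif20a, Bub1b and Tpx2 rose by 0.12 to 0.16, and the call of Ttk was lost in 4 of 11 alternatives. Mad2l1, the exception in BMDM, did not pass, at 117, 128 and 122 against 139, 124 and 134 CPM (0.11 ± 0.04, edgeR adjusted p = 0.0515, and 0.009 to 0.326 over the alternatives). Cenpa, Cenpf, Kif11, Kif23 and Birc5 had differences of −0.04 to 0.12 that did not pass.

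Top2a fell. It was at 1166, 1200.1 and 1206 CPM in the shCtrl libraries and 1019.7, 1033 and 1037 CPM in the shChrebp ones, with every shChrebp library below every shCtrl library (−0.21 ± 0.03, edgeR adjusted p = 5.51e-07). Mki67, at 1132, 1205 and 1189 against 1141, 1199 and 1217 CPM, overlapped between the groups and did not pass (0.01 ± 0.03, edgeR adjusted p = 0.784). Of the transcription factors, E2f2 had the lowest fold change of all members, at 17.8, 18.0 and 17.4 against 13.3, 10.6 and 11.8 CPM (−0.58 ± 0.09, edgeR adjusted p = 9.56e-06). E2f1 had a call in the other direction (0.13 ± 0.05) with overlapping groups, which was lost in 6 of 11 alternatives. Mybl2, which fell most in BMDM, was at 106, 106 and 106 against 109, 106 and 102 CPM and did not pass (−0.00 ± 0.04, edgeR adjusted p = 0.995), and neither did Foxm1 or E2f8.

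Among other genes of the same processes in tumors, 27 were higher and 8 lower of 57 mitosis genes, with a median of 0.10, and 4 were higher and 7 lower of 40 replication genes, with a median of −0.01. Knl1, a kinetochore scaffold that carries Bub1, had 0.38 ± 0.04, and Ect2, a regulator of cytokinesis, 0.32 ± 0.03. Nek2 and Hmmr rose by 0.26 and 0.23. Of replication genes, Dbf4, the activator of the kinase Cdc7, and Chaf1b rose by 0.24 and 0.23, and Prim2 and Uhrf1 fell by 0.28 and 0.19.

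Cycle inhibitors in tumors had 6 higher and 2 lower of 17 tested. Ccng2 (0.60 ± 0.07), Cdkn1b, which encodes p27 (0.36 ± 0.05), and Ccng1 (0.22 ± 0.05) rose, and Rb1 fell from 36.7 ± 0.728 to 28.8 ± 1.44 CPM (−0.35 ± 0.06). Cdkn1a did not pass (0.10 ± 0.05, edgeR adjusted p = 0.157), and neither did Cdkn2c, Rbl1 or Rbl2. Cdkn2a was at 0 counts in all 6 tumor libraries, which allows up to 3 counts, or 0.124 to 0.189 CPM of the total, per library for counting error alone, and Cdkn1c and Cdkn2b were below the filter on low counts. Upstream of the G1/S transition, Cdk4 rose from 254 ± 3.22 to 326 ± 0.465 CPM (0.36 ± 0.03) and Myc fell from 153 ± 6.18 to 105 ± 2.25 CPM (−0.54 ± 0.04). Skp2 and E2f4 rose by 0.22 and 0.17, Cdk6 fell by 0.12, and Ccnd3 did not pass (0.10 ± 0.04).

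Set side by side, the comparisons share no sample and were normalised in separate tables. Of the 19 members higher in shChrebp tumors, 17 were lower in choline-treated macrophages, and the other 2, Cdc45 and Cenpe, were not called there. All 6 members lower in shChrebp were also lower with choline, where 51 of 55 tested members fell. Across the 55 members tested in both, the log2 differences had a Pearson r of 0.05 and a Spearman rho of 0.05, given as a description over genes that are not independent. Mcm6 and Mcm4 show the range of such pairs, with Mcm6 at −0.28 in tumors and −0.94 in macrophages, and Mcm4 at 0.15 and −0.80.

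**Figure D5:**
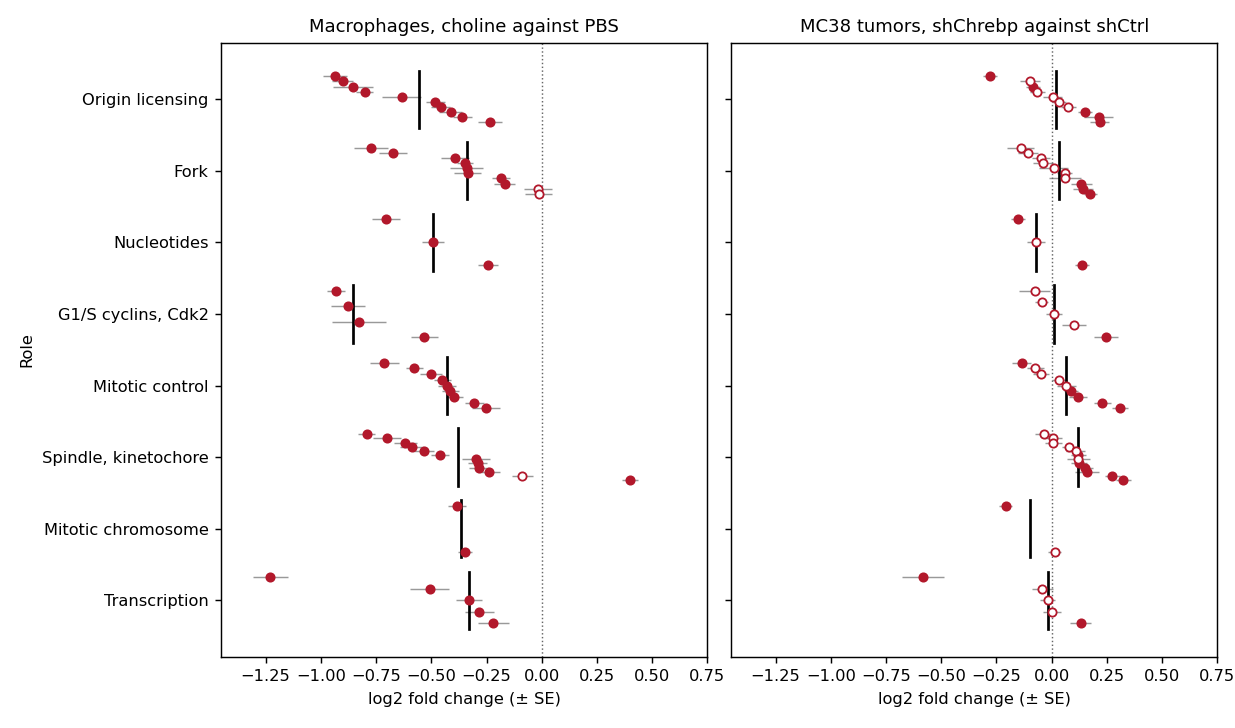
Log2 fold change with its SE (x axes) of each tested member by role (y axis), for choline against PBS in macrophages (left) and shChrebp against shCtrl in tumors (right). Filled points passed an adjusted p under 0.05, open points did not, and black lines are role medians, which run from −0.85 to −0.33 on the left and from −0.10 to 0.12 on the right.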

How the data were processed

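RNA-seq was measured in 12 libraries, 3 in each of 4 groups taken from the sample titles. Total RNA was extracted with TRIzol and made into libraries with a VAHTS Universal V6 kit, per the labels' protocols, and the submitters' processing notes name the build GRCm39. For the aligner, the counter, strand use and reads shared between gene copies, nothing is given in the sources used here. For tumors the authors deposited estimated counts, 92.0% of them whole, which were rounded, and FPKM. For macrophages the authors deposited FPKM without counts. Whole reads were recovered for 19496 of 19496 rows (tolerance 0.01 reads) and used as an alternative. A pair of macrophage columns carry the same PBS heading, so they are called PBS a and PBS b and have no replicate number.

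Tumor counts were fitted with edgeR 4.0.16 (TMM, filterByExpr, robust quasi-likelihood F test), which tested 11780 genes, and CPM were taken over the TMM-scaled counts of the genes tested. Macrophage values were fitted with limma 3.58.1 (trend, robust) as log2(FPKM + 0.1) where a gene reached 1 FPKM in 3 or more libraries, which tested 10028 genes, so fold changes of low genes are understated. Genes at an adjusted p under 0.05 (Benjamini-Hochberg) were called. Both fits were tested on simulated data. The simulation gave every gene the same replicate spread beyond sampling noise, so it does not show how the fits behave at the real spread. Alternatives were other size factors, DESeq2 1.42.0, other filters and pseudocounts, a replicate block and leaving out each library. Replicate pairs differed by more than sampling noise (chi-square over its degrees of freedom, 2.00 to 13.6). Whether libraries came from separate animals or cultures is not stated, so p-values reflect only how these samples vary, which may be technical variation.

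The members and lists were chosen with earlier results of these data known, and no list has a test. Named are all members by role, 9 fixed brakes and 4 fixed drivers of the cycle, and up to 4 called genes with the smallest adjusted p from each further list. The genes of 1 list that were higher in macrophages are not reported here. Of the members, 44 matched RefSeq promoters (GRCm38.p6), and 2 of them had more than 1 window, of which any could hold a motif. Mcm4, Tpx2, Gins1, Pole, Ccnd2, Gins2, Ccne2, Foxm1, Ccna2, Kif20a, Aurkb and Ccnd1 had none in the table.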

Additional observations from a re-analysis of the deposited data

How the results depend on the processing

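In macrophages, 51 of the 52 called members were called with the same sign in each of 10 alternatives, the exception being E2f2, given above. Members called lower numbered 50 to 52 and those called higher 1 in all 10, and all genes called numbered 4867 to 6426 (5754 as reported). In tumors, 16 of 25 called members were called in each of 11 alternatives, and all 25 kept their sign. Members called higher numbered 15 (DESeq2, and limma on FPKM) to 23 (no filter on low counts), against 19, and members called lower 4 to 6, against 6. All genes called in tumors numbered 3183 (limma on FPKM) to 4819 (no filter), against 4505.

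Signs changed only in members that were not called. In tumors these were Ccnd2 with limma on FPKM (−0.0138), Foxm1 with limma on FPKM (0.00987) and without the filter (0.00124), and Mybl2 with DESeq2's size factors in edgeR (0.00284), with DESeq2 (0.00771) and without the filter (0.0192). Over the fits that left out 1 library each, tumor log2 differences ranged for Cdt1 from −0.032 to 0.0519, Rfc4 from −0.0569 to 0.0498, Ccnd2 from −0.00466 to 0.0454, Cenpf from −0.0363 to 0.0537, Birc5 from −0.00591 to 0.0372, Mki67 from −0.00695 to 0.047, Foxm1 from −0.0353 to 0.00795, Mybl2 from −0.0174 to 0.0242 and E2f8 from −0.0700 to 0.00217. In macrophages they ranged for Cdc45 from −0.071 to 0.0256 and Prim1 from −0.0707 to 0.0322.

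The replicate block in tumors, with replicate numbers as a covariate, called 4640 genes and again 19 members higher and 6 lower. Same-numbered tumor libraries had residual correlations of 0.06, −0.06 and −0.03, so no pairing by number was visible in the values. This does not show that there was none. No paired analysis was possible because a pair of PBS columns of the macrophage data carry the same heading. Depth limits low genes such as Mlxipl in tumors. Ccnd2 in macrophages had 85 to 149 recovered reads per library and was left out by the limit of 1 FPKM. The edgeR fit on recovered reads called Ccnd2 lower with choline, and the fit without a filter on low values did not call it.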
